A study of Homo sapiens with 19 samples.

Results

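RPN2 (ENSG00000118705) encodes ribophorin II, a subunit of the oligosaccharyltransferase complex of the endoplasmic reticulum. It was described here together with 9 other subunit genes, RPN1, DDOST, DAD1, STT3A, STT3B, OST4, OSTC, TUSC3 and MAGT1, which were taken as a list of symbols and matched to Ensembl identifiers. All 10 genes were found among the 44717 gene identifiers counted in any sample, and all 10 passed the filter on low counts in each of the 4 comparisons. RPN2 was chosen by its fall after shBRG1 infection in these same samples, so that its values with shBRG1 are given as a description, without a test, and the others were taken as partners in its complex. The question was whether RPN2 fell alone or with its complex, in which of the knockdowns, and what the data hold on an effect of the shBRG1 vector other than the loss of BRG1.

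The 19 RNA-seq samples fall into 7 groups. 501Mel cells, a human melanoma line, carried lentiviral vectors expressing a scramble control (shSCR1) or an shRNA against BRG1 (shBRG1), with 3 samples of each, and other 501Mel cells carried a scramble control labelled shSCR2 or an shRNA against MITF (shMITF), with 2 samples of each. Hermes 3A cells, an immortal line of untransformed human melanocytes grown with TPA, cholera toxin, stem cell factor and endothelin-1, carried shSCR, shBRG1 or shMITF, with 3 samples of each, and shSCR was the control of both knockdowns. All groups were infected with a vector, and the study names a single construct for each target. BRG1, the product of SMARCA4, is the ATPase of the SWI/SNF chromatin remodelling complexes, and MITF is the transcription factor of the melanocyte lineage. The labels give no time after infection.

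Oligosaccharyltransferase transfers a preassembled sugar chain from a lipid carrier to asparagine residues of proteins entering the endoplasmic reticulum. Its catalytic subunit is either STT3A or STT3B. Complexes with STT3A sit at the translocon and act during translation, while complexes with STT3B act on sites that were passed over and hold an oxidoreductase subunit, TUSC3 or MAGT1. RPN1, RPN2, DDOST, DAD1 and OST4 are shared by both forms, and OSTC belongs to the STT3A form.

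The libraries held 29158502 to 78857900 counted reads each. The common coefficient of biological variation, the spread between samples of a group that counting error does not account for, was 4.56% to 5.88% in 501Mel shSCR1 and shBRG1 and in Hermes 3A shSCR and shBRG1, but 16.5% and 17.4% in 501Mel shSCR2 and shMITF and 28.6% in Hermes 3A shMITF, so that changes with shMITF were measured less precisely. Summed over 7 melanocyte lineage markers, the level was 3891 to 55765 CPM (read counts scaled to a common library size), and the 3 immune markers and the 2 endothelial markers listed came to at most 1.32 and 1.39 CPM. The 4 fibroblast markers reached 202 CPM, in Hermes 3A shMITF, against 56.5 to 63.4 CPM in Hermes 3A shSCR, and were at 126 to 137 CPM in Hermes 3A shBRG1. In 501Mel cells they came to 11.7 to 14.2 CPM with shBRG1 and 2.16 to 2.99 CPM with shSCR1. The sum of the 3 keratinocyte markers reached 57.5 CPM, also in Hermes 3A shMITF, where KRT5 and KRT14 held no counts and KRT10 made up the sum. The melanocyte lineage sum went down with each knockdown, most with shBRG1 in 501Mel cells, from 30595 or more to 4310 or less, and the part of these markers in the results was not tested. The targeted genes moved as labelled. SMARCA4 fell by 2.36 on the log2 scale with shBRG1 in 501Mel cells and by 2.38 in Hermes 3A cells, and MITF fell by 1.06 and 0.85 with shMITF (edgeR quasi-likelihood adjusted p = 0.0014 and 0.019). With shBRG1, MITF itself fell by 1.55 in 501Mel and by 0.43 in Hermes 3A cells.

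With shBRG1, RPN2 dropped 10.6-fold in melanoma cells and 4.19-fold in melanocytes. In 501Mel cells it stood at 667, 676 and 660 CPM in the 3 shSCR1 samples and at 64.5, 64.5 and 60.6 CPM in the 3 shBRG1 samples. The lowest control lay far above the highest knockdown sample, and 9.46% of the control level was left. The log2 fold change was -3.40 with a standard error of 0.050 and a 95% interval from -3.51 to -3.30. In melanocytes RPN2 went from 521, 520 and 533 CPM to 118, 133 and 125 CPM, again without overlap, and 23.8% of the control level was left. Its log2 fold change there was -2.07 (standard error 0.044, 95% interval from -2.16 to -1.98). Leaving out any one sample kept these log2 fold changes between -3.43 and -3.39 in 501Mel and between -2.12 and -2.03 in Hermes 3A cells. The scaling and the filter moved them more. With library sizes as the only scaling they were -3.05 in 501Mel and -1.96 in Hermes 3A cells. With at least 10 counts required in every sample the value in 501Mel cells was -3.28. Both 501Mel values lie outside the interval above. Only 224 of 20514 genes tested (1.09%) were lowered as far as RPN2 or further in 501Mel cells, and 85 of 17222 (0.494%) in Hermes 3A cells, RPN2 counted among them.

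With shMITF, no change of RPN2 was detected in either line. In 501Mel cells it stood at 578 and 544 CPM with shSCR2 and at 561 and 528 CPM with shMITF. These values overlapped, and the log2 fold change was -0.042 (95% interval from -0.31 to 0.23, edgeR adjusted p = 0.84). In the melanocytes the shSCR samples held 518, 522 and 530 CPM and the shMITF samples 484, 330 and 493 CPM. All 3 knockdown samples were lower than the controls, and replicate 2 stood apart from the others. The log2 fold change was -0.26 (95% interval from -0.67 to 0.14, edgeR adjusted p = 0.34) and -0.098 without that replicate. The intervals in both lines leave out a fall of the size seen with shBRG1. In bulk RNA, fewer cells that hold a transcript and less of it per cell cannot be told apart.

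**Figure D1:**
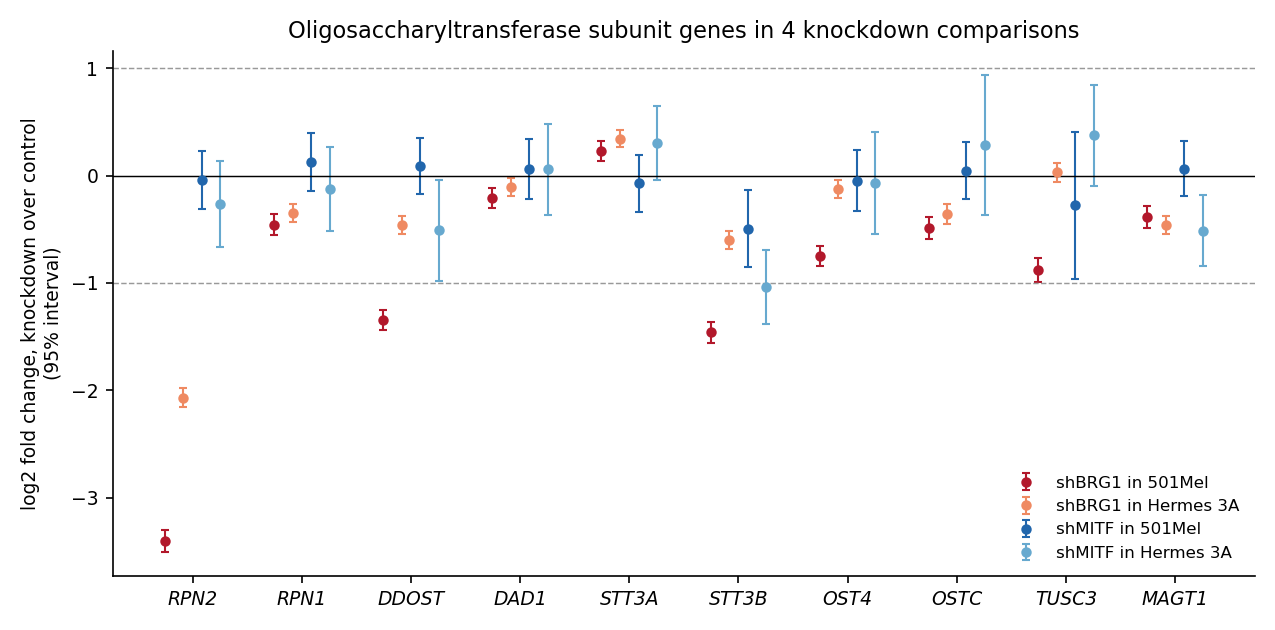
The log2 fold change (knockdown over control) of each subunit gene on the y axis, with the 95% interval of the edgeR fit as bars, for shBRG1 (red, orange) and shMITF (dark blue, light blue) in 501Mel and Hermes 3A cells. The dashed lines mark log2 fold changes of -1 and 1. RPN2 lies at -3.40 and -2.07 with shBRG1, below the other 9 genes in both lines, whose lowest value with shBRG1 is -1.46.

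When all 19 samples were normalised together, the 3 scramble groups held similar levels of RPN2. The mean was 572 ± 7.0 CPM in 501Mel shSCR1 (SD, n = 3), 571 ± 17 CPM in 501Mel shSCR2 (SD, n = 2) and 584 ± 10 CPM in Hermes 3A shSCR (SD, n = 3), differences within the spread of the samples. The order went on with 501Mel shMITF at 541 ± 38 CPM and Hermes 3A shMITF at 479 ± 103 CPM, which overlapped each other and, for 501Mel shMITF, the shSCR2 samples. The shBRG1 groups closed it, at 138 ± 8.1 CPM in Hermes 3A and 56.6 ± 2.1 CPM in 501Mel cells, each apart from all other groups. RPKM are CPM per kilobase of the merged exons of all transcripts of a gene in GENCODE 29. That length was 2819 bases for RPN2 and 7393 bases for STT3A, and the order of the genes depends on it. By this measure RPN2 was among the most abundant subunit genes of control cells. With shSCR1 it came after 2 of the 10, at 203 ± 2.5 RPKM, behind DDOST at 229 ± 2.8 and DAD1 at 209 ± 5.0 RPKM. RPN2 and DAD1 differed there by less than the sum of their SDs. With shBRG1 in 501Mel cells RPN2 was at rank 8, at 20.1 ± 0.75 RPKM, beside MAGT1 at 21.5 ± 0.83 and STT3A at 19.3 ± 0.17 RPKM. Its rank in Hermes 3A cells went from 4, at 207 ± 3.7 RPKM with shSCR, to 6, at 49.0 ± 2.9 RPKM with shBRG1. TUSC3 was the least abundant subunit gene in all 4 of these groups, at 4.27 to 16.4 RPKM.

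**Figure D2:**
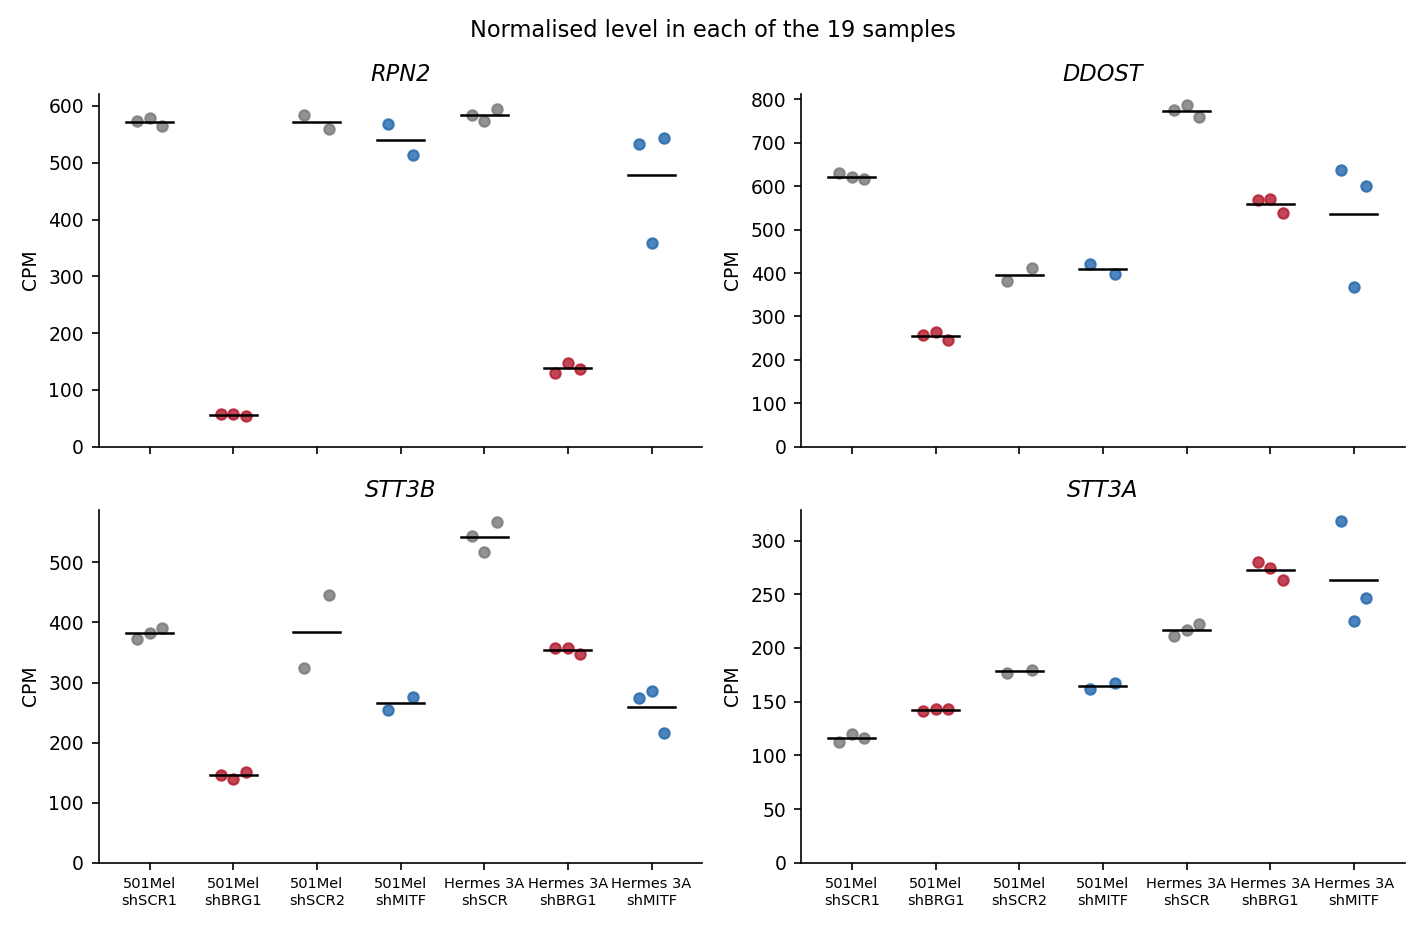
CPM on the y axis (TMM-normalised over all 19 samples, from 0) of RPN2, DDOST, STT3B and STT3A in each sample of the 7 groups, with scramble controls in grey, shBRG1 in red and shMITF in blue, and a bar at each group's mean. RPN2 shows the 3 scramble groups together near 572 to 584 CPM and both shBRG1 groups at or below 138 CPM on average, while STT3B is lower in each knockdown group than in its control.

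The rest of the complex fell less far. Among the 9 other genes, 2 were down-regulated with shBRG1 in 501Mel cells, that is past an adjusted p of 0.05 with a log2 fold change below -1, a call that 17.4% of all genes received, and 0 were up-regulated, against 21.7% of all genes. By the adjusted p alone, 8 of the 9 fell (39.1% of all genes) and 1 rose (41.2%). Their median log2 fold change was -0.49, against 0.053 over all genes tested and -3.40 for RPN2. The same counts in Hermes 3A cells were 0 of the 9 down-regulated (3.47% of all genes), 0 up-regulated (5.78%), 7 fallen by the adjusted p (28.6%) and 1 risen (28.2%), and TUSC3 did not pass. The median there was -0.35, against 0.0093 over all genes and -2.07 for RPN2. The 7 and 1 in Hermes 3A cells became 2 and 0 when the shMITF samples entered the same fit and widened the estimated spread. With library sizes in place of TMM scaling, which moved the median of all genes by 0.35 in 501Mel and by 0.10 in Hermes 3A cells, 6 fell and 2 rose in 501Mel, and 5 fell and 2 rose in Hermes 3A cells.

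DDOST, a shared subunit without catalytic activity, stood at 734, 726 and 720 CPM in the shSCR1 samples and at 287, 295 and 276 CPM with shBRG1. All knockdown samples lay below all controls, and DDOST was down-regulated, with a log2 fold change of -1.35 (standard error 0.046, edgeR adjusted p = 6.2e-18). It fell from 696 ± 16 to 506 ± 13 CPM in Hermes 3A cells (SD, n = 3), a log2 fold change of -0.46 (edgeR adjusted p = 1.1e-10). The 2 scramble groups of 501Mel cells differed for this gene, with 622 ± 7.6 CPM in shSCR1 and 396 ± 21 CPM in shSCR2 on the scale of all samples. Against both scramble groups pooled, the log2 fold change of DDOST in 501Mel cells was -1.08, still called.

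STT3B was the other down-regulated subunit gene in 501Mel cells. It held 433, 446 and 458 CPM in the controls and 163, 155 and 168 CPM in the knockdown, for a log2 fold change of -1.46 (SE 0.047, edgeR adjusted p = 2.2e-18). It fell from 487 ± 20 to 321 ± 2.6 CPM in Hermes 3A cells (SD, n = 3), by 0.60 on the log2 scale (edgeR adjusted p = 2.9e-13). STT3A, the other catalytic subunit, moved the opposite way. It rose from 131, 140 and 136 CPM to 157, 160 and 160 CPM in 501Mel cells, by a log2 fold change of 0.23 (edgeR adjusted p = 7.2e-05), although not against the pooled scramble groups (-0.014). STT3A rose in Hermes 3A cells from 189, 197 and 199 CPM to 252, 249 and 241 CPM, a log2 fold change of 0.34 (edgeR adjusted p = 1.2e-08). Each set of STT3A values was free of overlap. The locus of STT3A overlaps CHEK1 on the same strand and FEZ1 on the other, and the strand used in counting is not given in the sources used here.

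The shared subunits RPN1, DAD1 and OST4 fell more modestly. RPN1, ribophorin I, went from 346 ± 12 to 253 ± 4.8 CPM in 501Mel cells (SD, n = 3), a log2 fold change of -0.46, and from 331 ± 10 to 260 ± 8.9 CPM in Hermes 3A cells, a log2 fold change of -0.35. DAD1, the defender against cell death 1, fell by 0.21 in 501Mel and by 0.10 in Hermes 3A cells, directions that turned with library-size scaling, to 0.14 and 0.0022. Its call in Hermes 3A cells (edgeR adjusted p = 0.033) was lost without shSCR replicate 2 or any single shBRG1 replicate (edgeR adjusted p = 0.052 to 0.12). The DAD1 call in 501Mel cells was lost against the pooled scramble groups (-0.026, edgeR adjusted p = 0.88). It was also lost with at least 10 counts required in every sample (-0.084, edgeR adjusted p = 0.086). OST4, a very small subunit, fell by 0.75 and by 0.13, and its locus overlaps AGBL5 on the other strand. OSTC, of the STT3A form, fell by 0.49 and by 0.36. Of the oxidoreductase subunits of the STT3B form, TUSC3 fell by 0.88 in 501Mel cells and had a log2 fold change of 0.031 in Hermes 3A cells (edgeR adjusted p = 0.58), and MAGT1 fell by 0.38 and by 0.46. With library-size scaling, MAGT1 in 501Mel cells was at -0.033 and no longer passed (edgeR adjusted p = 0.52). The same held for OST4 in Hermes 3A cells (-0.021, edgeR adjusted p = 0.67). A further pair of subunit genes was not on the list, KRTCAP2 of the STT3A form and TMEM258 of both forms. TMEM258 rose by 0.58 in 501Mel cells, KRTCAP2 had a log2 fold change of 0.024 there, and KRTCAP2 fell by 0.28 in Hermes 3A cells.

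With shMITF in 501Mel cells, 0 of the 9 other genes passed the test in either direction by edgeR, where 10.5% of all genes fell and 10.0% rose, 3.40% were down-regulated and 5.59% up-regulated. At an unadjusted p under 0.05, 1 of them was lower and 0 were higher, and DESeq2 put 1 past the adjusted p. It was STT3B, at 321 and 434 CPM with shSCR2 and at 252 and 283 CPM with shMITF, a log2 fold change of -0.50 (edgeR adjusted p = 0.056, DESeq2 adjusted p = 0.030). The control samples of STT3B differed more from each other than the nearer of them from the knockdown, and without shSCR2 replicate 1, the lower one, its log2 fold change was -0.72 (edgeR adjusted p = 0.0028), and without shSCR2 replicate 2 it was -0.27 (edgeR adjusted p = 0.33). With shMITF in Hermes 3A cells 1 of the 9 was down-regulated, against 4.04% of all genes, 0 were up-regulated (3.35%), 2 fell by the adjusted p (9.15% of all genes) and 0 rose (7.85%). STT3B was again the one called, at 483, 470 and 505 CPM with shSCR and at 249, 263 and 196 CPM with shMITF, with a log2 fold change of -1.04 (standard error 0.15, edgeR adjusted p = 0.0039). That value lies close to the threshold, and without shMITF replicate 3 it was -0.92 and no longer past it. MAGT1 fell as well, by 0.51 (edgeR adjusted p = 0.043), a call lost without any 1 of the shSCR samples (edgeR adjusted p = 0.13 to 0.17) or without shMITF replicate 3 (0.052). DDOST, at 579, 338 and 546 CPM against 689, 715 and 677 CPM, had a log2 fold change of -0.51 (edgeR adjusted p = 0.13), with -0.66 without shMITF replicate 1 (edgeR adjusted p = 0.042) and -0.30 without shMITF replicate 2 (edgeR adjusted p = 0.088). Replicate 2 of Hermes 3A shMITF was the lowest of its group for DDOST, as it was for RPN2, RPN1, DAD1, STT3A, OST4, OSTC, TUSC3 and MAGT1. Without it TUSC3 passed the test, with a log2 fold change of 0.60 (edgeR adjusted p = 0.0078).

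A ratio taken within each sample does not depend on the scaling between libraries. The ratio of RPN2 to the geometric mean of the 9 other genes, in counts per kilobase, was 3.43 to 3.59 in 501Mel shSCR1 and 0.498 to 0.531 in 501Mel shBRG1. It was 2.61 to 2.65 in Hermes 3A shSCR and 0.688 to 0.770 in Hermes 3A shBRG1. RPN2 was thus lowered relative to its complex by 6.79-fold in 501Mel and by 3.58-fold in Hermes 3A cells. With shMITF the difference in the log2 ratio was 0.015 in 501Mel (exact two-sided permutation test, p = 0.67) and -0.11 in Hermes 3A cells (p = 0.40), with overlapping values in both.

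The log2 ratio of STT3B to STT3A was lower in all 4 knockdown groups than in their controls, by differences of -1.69 and -0.95 with shBRG1 and of -0.41 and -1.34 with shMITF, in 501Mel and Hermes 3A cells in turn, and no group overlapped its control. That of TUSC3 to MAGT1 differed by -0.50 and 0.49 with shBRG1 and by -0.36 and 0.85 with shMITF, in the same order, and only 501Mel shMITF overlapped its control. Exact two-sided permutation tests of 3 against 3 samples cannot go below p = 0.10, which both ratios reached in all comparisons of that size, and 2 against 2 cannot go below 0.33. Over the 10 ratio tests the smallest adjusted p was 0.17.

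**Figure D3:**
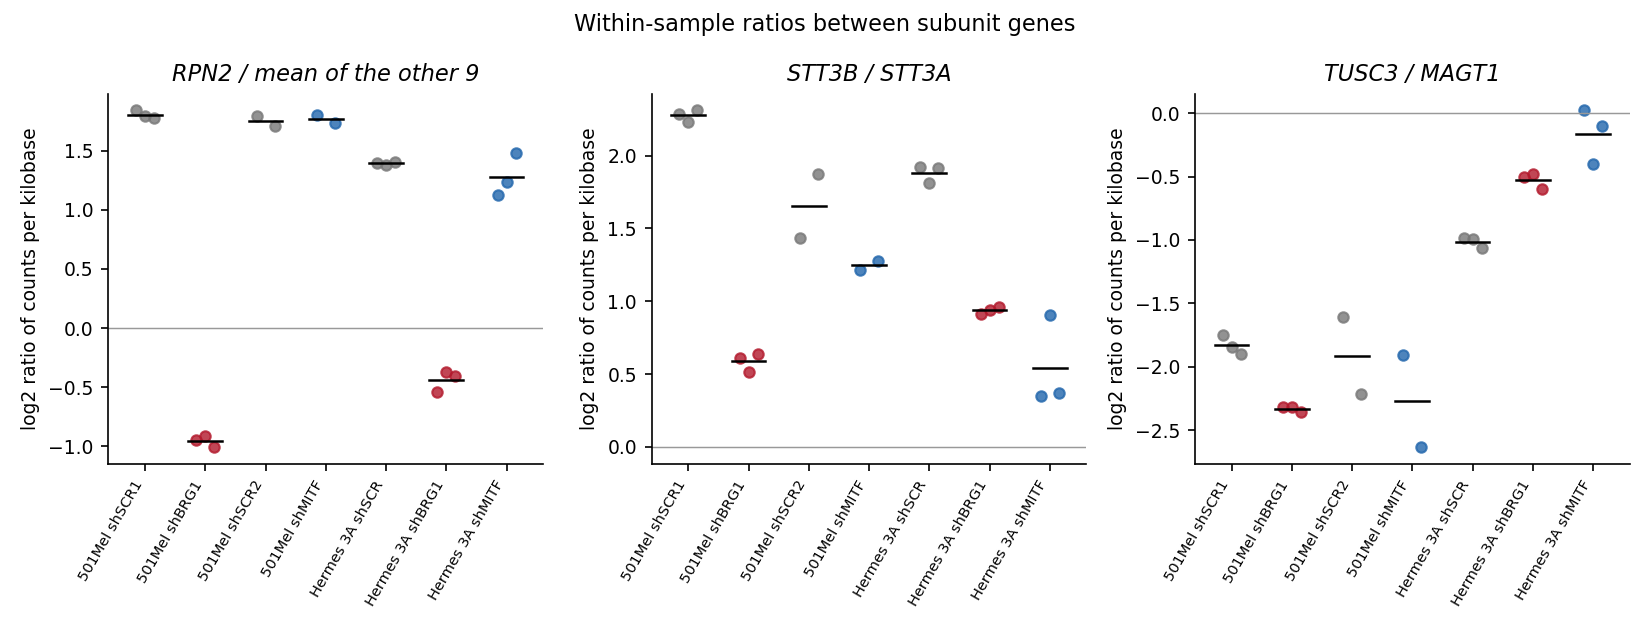
The log2 ratio of counts per kilobase within each of the 19 samples on the y axis, for RPN2 over the geometric mean of the 9 other genes (left), STT3B over STT3A (middle) and TUSC3 over MAGT1 (right), with scramble controls in grey, shBRG1 in red, shMITF in blue and a bar at each group's mean. The RPN2 ratio is below 0 in both shBRG1 groups and above 1 in the other 5 groups.

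With shBRG1, DDOST, STT3B and OST4 were lowered further in 501Mel than in Hermes 3A cells, and TUSC3 fell in 501Mel cells only. The difference of the log2 fold changes, 501Mel minus Hermes 3A, passed the adjusted p for 8 of the 9 other genes, all of them below 0 (33.1% of all genes were below 0 and 24.8% above), and for 0 of them with a size over 1 (26.9% of all genes). It was largest in size for TUSC3 at -0.94, DDOST at -0.92, STT3B at -0.89 and OST4 at -0.66. For RPN1, DAD1, STT3A and OSTC it lay between -0.16 and -0.14 and turned positive with library-size scaling or with at least 10 counts required in every sample. These 4 calls were each lost when single samples of the shBRG1 or control groups were left out, among them 501Mel shBRG1 replicate 1 (differences of -0.087 to -0.032), and for MAGT1 the difference of the lines was 0.047 (edgeR adjusted p = 0.58). For RPN2 the difference was -1.36, given without a test. It was -1.09 with library-size scaling and -1.17 with at least 10 counts required in every sample. Differences of the shMITF effects between the lines passed the adjusted p for 0 of the 9 genes by edgeR and by DESeq2. By edgeR, 0.830% of all genes passed it below 0 and 2.16% above. At an unadjusted p under 0.05, 2 of the 9 lay above 0, and the share of all genes at that threshold was not computed. Within 501Mel cells, the difference of the log2 fold changes, shBRG1 minus shMITF, passed the adjusted p for 7 of the 9. It lay below 0 for 6 of them (26.8% of all genes) and above 0 for 1, STT3A (21.2%). DDOST alone also passed in size, at -1.41, against 27.3% of all genes. Each effect was taken against its own scramble group, and DDOST was not the only gene whose control levels differed. On the scale of all samples, STT3A held 116 ± 3.8 CPM in shSCR1 and 178 ± 1.4 CPM in shSCR2. The same gene held 143 ± 1.2 CPM with shBRG1 and 165 ± 4.1 CPM with shMITF. OSTC held 93.4 ± 4.0 CPM in shSCR1 and 137 ± 6.3 CPM in shSCR2. With no filter on low counts, the STT3A difference no longer passed (edgeR adjusted p = 0.059). TUSC3, at -0.58 (edgeR adjusted p = 0.13), passed without shSCR2 replicate 1 (-0.89) or shMITF replicate 2 (-0.87), and was -0.34 without shSCR2 replicate 2 (edgeR adjusted p = 0.41) and -0.19 without shMITF replicate 1 (0.47). DAD1, at -0.25 (edgeR adjusted p = 0.052), passed without shMITF replicate 1 (-0.34) and was -0.13 without shMITF replicate 2. For RPN2 the difference of the shBRG1 and shMITF effects was -3.33, given without a test, and -3.11 with library-size scaling.

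Other genes of the N-glycosylation pathway and of the endoplasmic reticulum were read against the shares of all genes, which with shBRG1 were 39.1% fallen and 41.2% risen in 501Mel cells and 28.6% and 28.2% in Hermes 3A cells. Of 24 genes that assemble the lipid-linked sugar chain, 10 fell and 13 rose with shBRG1 in 501Mel cells (median log2 fold change 0.22). The number of falls was near the share of all genes. Past the fold threshold, 2 were down-regulated (17.4% of all genes) and 4 up-regulated (21.7%). DOLK, the dolichol kinase, was lowered by 1.35 and ALG14 by 1.05, whereas DPM2, a subunit of dolichol phosphate mannose synthase, rose by 1.72 and NUS1, a subunit of the dehydrodolichyl diphosphate synthase, by 1.05. In Hermes 3A, 13 of these genes fell and 7 rose. ALG6 fell by 0.93 and ALG8 by 0.52, both glucosyltransferases of the pathway, while the mannosyltransferase gene ALG9 and DPM3 rose by 1.14 and 1.05.

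Of 15 genes of glycan trimming and glycoprotein folding, 12 fell with shBRG1 in 501Mel cells (39.1% of all genes), 5 of them down-regulated (17.4%), and 0 rose by edgeR (1 at an unadjusted p under 0.05), with a median log2 fold change of -0.69. The lowest was PDIA3, a disulfide isomerase that works with the lectin chaperones, which went from 354 ± 13 to 48.1 ± 1.4 CPM (SD, n = 3), a log2 fold change of -2.88, nearest to RPN2 among the listed genes. CANX, calnexin, followed with a log2 fold change of -1.50. In Hermes 3A, 10 of 15 fell (28.6% of all genes) and 2 rose (28.2%). PDIA3 fell by 0.99 there and MLEC, malectin, by 0.95, while MOGS, the first glucosidase of trimming, and EDEM1 rose by 0.18 and 0.13. With shMITF 5 of 15 fell in Hermes 3A cells (9.15% of all genes), MLEC being down-regulated at -1.16, and in 501Mel cells, where 10.5% of all genes fell and 10.0% rose, 1 fell (MLEC, by 0.44) and 2 rose (MOGS by 0.45 and EDEM1 by 0.41).

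Of 17 translocon and signal peptide genes tested, 7 fell and 7 rose with shBRG1 in 501Mel cells (median 0.0094, against 0.053 over all genes), counts near the shares of all genes. SSR4, a subunit of the translocon-associated protein complex, fell by 1.66 and SPCS1, of the signal peptidase complex, fell by 1.50, but SEC61A1, the channel subunit of the translocon, rose by 1.25. The melanocytes had 9 that fell (28.6% of all genes) and 2 that rose (28.2%), with SSR4 lower by 0.55, SEC61G lower by 0.43, SEC61A1 higher by 0.56 and SEC61B higher by 0.17. Of 21 genes of the unfolded protein response, 11 fell and 9 rose with shBRG1 in 501Mel cells, where 39.1% of all genes fell and 41.2% rose. PDIA6, a disulfide isomerase, fell by 2.20 and HSP90B1, a chaperone, fell by 1.54, while DDIT3, the transcription factor CHOP, and EIF2AK3, the sensor kinase PERK, rose by 2.27 and 1.72. In the melanocytes 16 of 21 fell (28.6% of all genes) and 1 rose (28.2%). DNAJC3, a co-chaperone, was down-regulated at -1.11 and EIF2AK3 rose by 0.62, whereas DDIT3 fell by 0.30. With shMITF in Hermes 3A cells 8 of 21 fell (9.15% of all genes), the lowest being HYOU1 at -1.31 and PDIA4 at -1.17, both chaperones of the endoplasmic reticulum.

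With shMITF the shares of all genes past the adjusted p were 10.5% fallen and 10.0% risen in 501Mel and 9.15% and 7.85% in Hermes 3A cells. In 501Mel cells 2 of 24 lipid-linked chain genes fell (SRD5A3 by 0.47 and ALG5 by 0.46) and 3 rose, with ALG9 up-regulated at 1.01. In the translocon list 2 of 17 fell (SEC63 by 0.55 and SSR3 by 0.43), and in the unfolded protein response list 2 of 21 fell (DDIT3 by 0.87 and DNAJC3 by 0.51) and 2 rose (DNAJB9 by 0.87 and SYVN1 by 0.46). The melanocytes showed 1 lipid-linked chain gene that fell (SRD5A3, by 0.82) and 3 that rose, with DPM3 and DPM2 up-regulated at 1.11 and 1.01, and 0 of the translocon genes passed by edgeR, with 1 of 17 lower at an unadjusted p under 0.05.

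**Figure D4:**
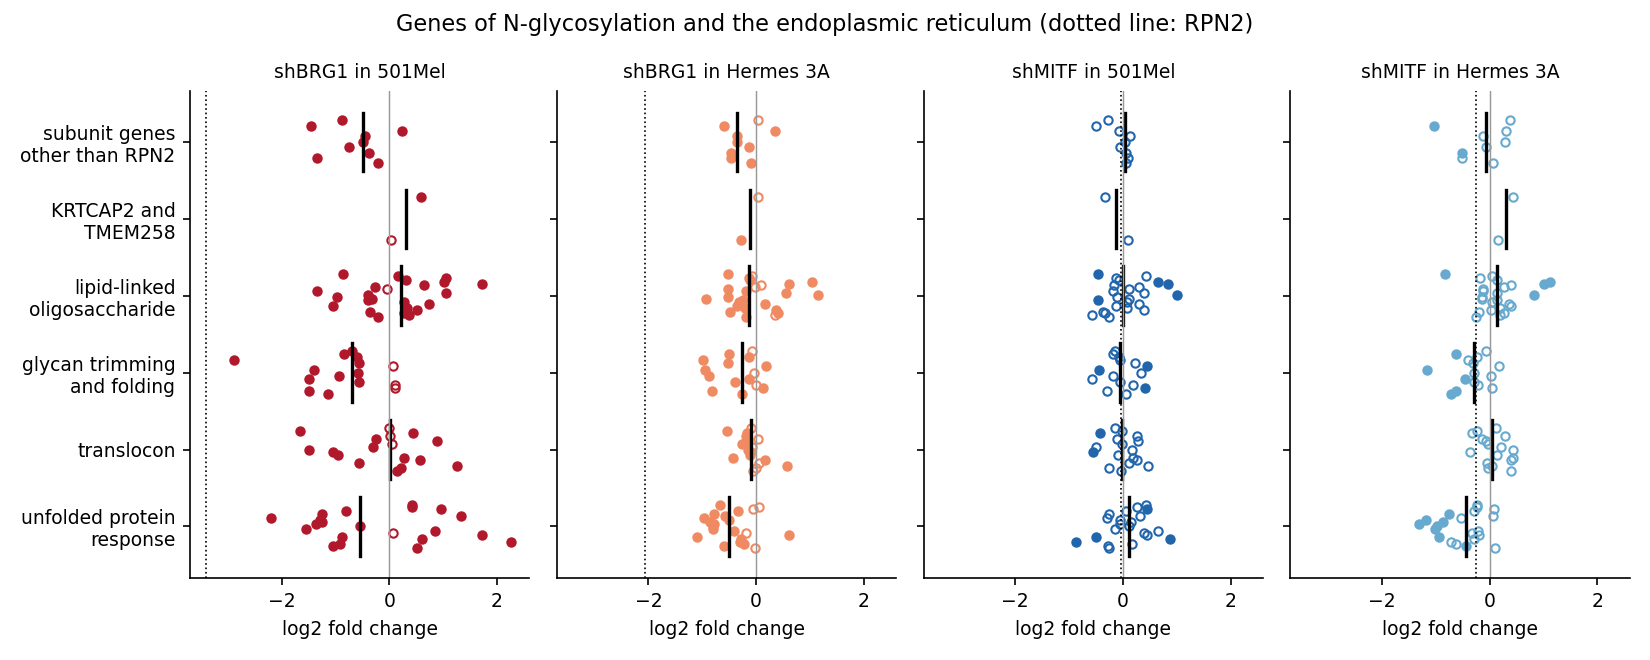
The log2 fold change on the x axis for each gene of the 9 subunit genes other than RPN2, of KRTCAP2 and TMEM258 and of 4 lists of related genes (rows), in the 4 comparisons (panels). Filled points passed an adjusted p of 0.05 and open points did not, black bars are medians and the dotted line is RPN2, which lies left of every point with shBRG1 in both lines.

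Genes with a pattern like that of RPN2 were named up to a fixed number of 5, and how many more correlate as closely was not counted. Over the 19 samples, the 5 genes whose log2 CPM correlated best with that of RPN2, out of 12788 genes averaging 100 counts or more, were MMAB (Pearson r = 0.984), KIF16B (0.977), PRKCH (0.977), GPN3 (0.976) and ERLIN1 (0.972). These points share the split between shBRG1 and the other samples and are not independent, so that r is given only as a measure of likeness. PRKCH, the protein kinase C eta, came nearest in size, with log2 fold changes of -3.05 in 501Mel and -1.80 in Hermes 3A cells. Among the subunit genes r was 0.755 for RPN1, 0.689 for STT3B, 0.686 for MAGT1, 0.667 for DDOST, 0.554 for OSTC, 0.503 for OST4, 0.416 for TUSC3, 0.095 for DAD1 and 0.026 for STT3A. Of 16213 genes tested with shBRG1 in both lines, 14 others were lowered at least as far as RPN2 in both. Only 1 of them, APOE, held 100 CPM or more in both control groups, a limit and a name chosen after the values were seen. APOE, an apolipoprotein, was lowered by 3.42 and 2.54 with shBRG1, and unlike RPN2 also had log2 fold changes of -1.17 and -1.67 with shMITF.

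RPN2 lies on chromosome 20, at chr20:37178410-37241623 on the plus strand in GENCODE 29 (GRCh38), a build other than that of the deposited counts. None of the genes around it that were tested was lowered as far. MROH8, which overlaps the start of RPN2 on the other strand, held at most 47 counts in any sample and had log2 fold changes of -0.29 and -0.072 with shBRG1 in 501Mel and Hermes 3A cells (edgeR adjusted p = 0.31 and 0.84). RBL1, a pocket protein of the retinoblastoma family on the side before RPN2, fell by 1.06 and 0.64 with shBRG1, from 38.0 to 18.3 CPM in 501Mel cells. On the far side, MANBAL rose by 0.38 in 501Mel cells and had a log2 fold change of -0.019 in Hermes 3A cells. SRC, a tyrosine kinase, held at most 47 counts in a sample of the first comparison, where it fell by 0.83, and rose by 0.32 in Hermes 3A cells. GHRH held at most 1 count, and the listed pseudogenes nearby, RPS27AP3 and ENSG00000236159, at most 3.

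Whether the shBRG1 hairpin matches RPN2 was not tested, because the sources used here give the construct by its catalogue identifier and not by sequence. A loss of BRG1 and any other effect of the vector cannot be told apart in these samples, since 1 construct was used against BRG1 and both lines received it. What could be read was the sequence that the 2 transcripts share, as a hairpin against SMARCA4 pairs with SMARCA4 RNA over a stretch of about its own length. The longest run of identical bases between any of 36 coding SMARCA4 transcripts and the RPN2 transcript of GENCODE 29 (ENST00000237530.10) was 13 bases on the same strand, at bases 2309 to 2321 of 2515, in the 3′ UTR of RPN2. Against the opposite strand of SMARCA4 it was 12 bases, in the 5′ UTR of RPN2. Both runs are shown as the longest that SMARCA4 shares with this 1 RPN2 transcript, and other RPN2 transcripts were not searched.
same strand: aaaaaagaaaaaa
opposite strand: gggcgcggggga
Both are of low complexity, and a run at least as long on the same strand was found for 80.0% of 14480 protein-coding genes tested with shBRG1 in 501Mel cells, where the median was 14 bases. No window of 21 bases of SMARCA4 therefore occurs whole in this RPN2 transcript. Shorter pairing, of the kind by which a miRNA seed acts, is not bounded in this way. Of the 5771 windows of 21 bases in the longest SMARCA4 transcript, 1193 (20.7%) would give a guide whose bases 2 to 8 are complementary to 7 letters somewhere in the RPN2 transcript, and 145 (2.5%) to letters in its 3′ UTR of 311 bases. These are matches of letters only, and which window the construct uses is not among them. The same shares were not computed for other transcripts, so whether those of RPN2 are high or low was not tested.

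Promoters were read from RefSeq (GRCh38.p14), where 7 of the 10 genes had an entry of 300 bases around the start. They were searched on both strands for CACGTG, the palindromic E-box that MITF is known to bind, for CATGTG, a related form, and for the endoplasmic reticulum stress element, CCAAT followed after 9 bases by CCACG, and none of these contains another. CACGTG was found in 1 of the 7, DDOST, 13 bases before its RefSeq start, and the other motifs in none of them. Over 35116 promoters of the same table, 7.26% held CACGTG, 11.1% held CATGTG and 0.08% held the stress element. The 100 bases before the RefSeq start are shown for RPN2 and DDOST, as the gene with the farthest fall and the only one with a match, with the match in capitals. They lie at chr20:37179230-37179329 on the plus strand and at chr1:20661370-20661469 on the minus strand.
RPN2: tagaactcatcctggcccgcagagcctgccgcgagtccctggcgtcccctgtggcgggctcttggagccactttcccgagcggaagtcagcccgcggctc
DDOST: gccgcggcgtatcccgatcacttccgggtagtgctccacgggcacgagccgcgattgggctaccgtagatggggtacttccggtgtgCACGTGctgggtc
DDOST, which holds the letters of the MITF motif, had log2 fold changes of 0.088 and -0.51 with shMITF, neither past the test. The absence of a match in RPN2 concerns these letters in this window alone.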

How the data were processed

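RNA was read from 19 samples of 2 human cell lines. After removal of ribosomal RNA, the authors treated the cDNA with a duplex-specific nuclease, which lowers the most abundant cDNAs and so can compress differences of abundant genes such as RPN2, and they deposited raw read counts per Ensembl gene. The submitters' processing notes name CASAVA 1.8, Bowtie 0.12.7, TopHat 1.4.1 and hg19. The counting program and annotation are not given in the sources used here. Nothing in the labels says that replicates came from separate cultures, so that p-values measure only the spread between these samples. Intervals cover this spread and counting error.

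Groups and replicate numbers were read from the sample titles. Each comparison was fitted on its own groups in edgeR 4.0.16 (R 4.3.3) with TMM, filterByExpr, a robust glmQLFit and glmQLFTest, and p-values were Benjamini-Hochberg adjusted over all genes tested. Down- and up-regulated mean an adjusted p under 0.05 and an absolute log2 fold change over 1, and fell and rose mean an adjusted p under 0.05. Differences of effects were contrasts in one fit. CPM are TMM-normalised within a comparison unless stated. Ratios used counts per kilobase with 0.5 added and exact permutation tests over samples. Lengths, taken over the merged exons of a gene, and coordinates came from GENCODE 29.

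The members and lists were chosen with earlier results of these data known. Named were all members, the targeted genes, in each list the 2 genes with the largest fall and the 2 with the largest rise among those called or, with none called, among those past the adjusted p, 3 neighbours on each side of RPN2 and the 5 genes most like it. In the translocon list 17 of 18 genes were matched and tested. Alternatives were DESeq2 1.42.0, library sizes, no filter, 10 counts in every sample, a replicate block, all groups of a line in one fit, pooled scramble controls, no fold threshold and leaving out each sample. The edgeR code was tested on simulated data, where 200 of 200 genes given a log2 change of 2 were recovered in each comparison, and unchanged genes were called 2 and 0 times for shBRG1 and 6 and 3 times for shMITF, in 501Mel and Hermes 3A cells in turn. The changed genes were drawn from well-counted ones, with a common spread for all samples of a comparison. Recovery of smaller changes, or with a spread that differs between groups, was not tested. Tables were made with numpy 2.4.6, scipy 1.17.1 and pandas 2.3.3 under Python 3.11.15, and figures with matplotlib 3.10.9.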

Additional observations from a re-analysis of the deposited data

Results flagged for a closer look

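The effects of shBRG1 and shMITF on DDOST differed in 501Mel cells. The difference of the log2 fold changes was -1.41 (SE 0.096, 95% interval from -1.61 to -1.20, edgeR adjusted p = 1.5e-08). DDOST was lower in 3 of 3 shBRG1 samples than in any shSCR1 sample and was higher in 2 of 2 shMITF samples than in either shSCR2 sample. The level of DDOST also differed between these control groups, at 622 ± 7.6 CPM (SD, n = 3) and 396 ± 21 CPM (SD, n = 2). Against the pooled scramble controls of 501Mel cells, the log2 fold change of DDOST was -1.08 with shBRG1 (edgeR adjusted p = 0.0023) and -0.35 with shMITF (edgeR adjusted p = 0.46), values that are not a test of the difference.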

How the results depend on the processing

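Counts are over the 9 genes other than RPN2. With no fold threshold, 8 were down-regulated and 1 up-regulated with shBRG1 in 501Mel cells, 7 and 1 in Hermes 3A cells, and 2 were down-regulated with shMITF in Hermes 3A cells. With library sizes only, 1 (STT3B, with DDOST at -0.997) was down-regulated with shBRG1 in 501Mel and 0 with shMITF in Hermes 3A cells, where leaving out a sample gave 0 to 1 (0 without shMITF replicate 3). The share of up-regulated genes among all called moved from 55.5% to 72.1% with shBRG1 in 501Mel, from 62.5% to 72.5% in Hermes 3A and from 45.3% to 56.0% with shMITF in Hermes 3A cells. Leaving out a sample gave 0 to 1 genes for the difference of shBRG1 effects (TUSC3, just past the threshold without Hermes 3A shBRG1 replicate 3) and 1 to 2 for that of shBRG1 and shMITF effects in 501Mel (STT3B at -1.20 without shSCR2 replicate 2 and -1.02 without shMITF replicate 1). Directions reversed for DAD1 (0.14 in 501Mel, 0.0022 in Hermes 3A, library sizes), for STT3A (-0.014, pooled scramble controls), and for the line difference of shBRG1 effects in RPN1 (0.13 with library sizes, 0.055 with 10 counts in every sample), DAD1 (0.14, 0.057), STT3A (0.13, 0.051) and OSTC (0.11, 0.033). With single 501Mel shMITF or shSCR2 samples left out, the RPN2 ratio reached -0.027 to 0.057 and that of TUSC3 to MAGT1 went from -0.72 to 0.0064 (the latter without shMITF replicate 2). The cause was not tested. As deviations from their group means, same-numbered samples of a knockdown and its control correlated between -0.085 and 0.121, so the numbers do not show a pairing. The replicate block moved STT3B with shMITF in 501Mel cells to an edgeR adjusted p of 0.027, past the test. The TUSC3 difference of shBRG1 and shMITF effects went to 0.038 (-0.58), also past the test. The RPN1 line difference went to 0.051, no longer past it.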
